A study of Mus musculus with 6 samples.

Results

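The liver makes most of the complement and clotting proteins of blood plasma, and 35 of their genes were examined here in mouse liver after chemical carcinogenesis. They were chosen by name as liver-made proteins of the cascades with serpins left out, and all 35 were found among the 25102 genes of the deposited table. Of these, 18 belong to complement and 16 to coagulation, and vitronectin (Vtn), a plasma adhesion protein that binds the terminal complement complex, stood apart. The table's own pathway column placed all 35 in the KEGG pathway of complement and coagulation cascades.

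Complement is a chain of plasma proteases that tags and lyses targets. Mannose-binding lectins and C1 start it, C3 and C5 are cleaved by convertases, and C6 to C9 assemble on C5b into the pore called the membrane attack complex. Coagulation is a second chain of proteases that ends in thrombin, which turns fibrinogen into fibrin, and plasmin later dissolves the clot. Hepatocytes secrete nearly all of these proteins, and several of them, among them fibrinogen and C3, are acute phase proteins whose synthesis rises in inflammation under interleukin-6.

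The libraries were poly(A) RNA from livers of male C57BL/6J mice, 3 controls and 3 treated with diethylnitrosamine and carbon tetrachloride (DEN+CCl4), a model of hepatocellular carcinoma. Mice were randomised at 2 weeks of age. DEN was given to the treated mice 1 time into the peritoneum (1 mg/kg). CCl4 (0.2 mL/kg, same route, 2 times a week) began some 6 weeks after DEN and went on for at most 14 weeks. The labels give the controls no agent and do not say whether tumour tissue was taken, and they name no animal, so p-values measure only the spread between these samples, which may be technical. Values are FPKM, fragments scaled by gene length and library total, so levels of different genes can be compared, and the read depth is unknown.

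DEN+CCl4 replicate 3 stood apart from the other 5 libraries. Mitochondrial transcripts and their nuclear copies took 85.0% of its FPKM, against 38.1% to 62.1% elsewhere, and its median tested gene was at 1.19 FPKM against 3.43 to 4.46 FPKM. Each member is therefore given as deposited and after median-ratio scaling, which divides a library by the median, over genes above 0 everywhere, of its ratio to the geometric mean over libraries. The divisors were 1.10 to 1.46 for the other libraries and 0.419 for replicate 3. Over all tested genes the median log2 fold change was -0.27 as deposited and -0.10 after scaling, and member values are to be read against these. The labelled tissue matched its markers. Albumin (Alb) was at 7482 to 24459 FPKM in all 6 libraries, and 9 secreted hepatocyte proteins outside these cascades summed to 46154 to 76338 FPKM across the controls, then 14814 to 77265 FPKM across the treated livers. In bulk tissue, fewer cells of a type and less RNA per cell cannot be told apart.

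None of the 35 members passed the test between DEN+CCl4 and control liver. Limma's test on log2(FPKM + 1) with Benjamini-Hochberg adjustment called 0 of 35 higher and 0 lower, where 1.48% of 8528 tested genes were called (0.833% higher and 0.645% lower). With p under 0.05 before adjustment it had 0 members higher and 4 members lower (Mbl2, C6, C8b and Mbl1), while 7.60% of all tested genes were under that p (2.53% higher and 5.07% lower). After median-ratio scaling limma called 0 members, as it called 0 of all genes (0%), and 1 member, Klkb1, was lower at an unadjusted p under 0.05 (11.1% of all tested genes, 4.39% higher and 6.74% lower). After scaling and without DEN+CCl4 replicate 1, Klkb1 passed (limma adjusted p = 0.0394), as did Mbl1, Mbl2, C6 and C9, all lower, where 8.03% of all genes tested were called (2.88% higher and 5.15% lower). All 35 had a mean above the filter of 1 FPKM in the controls, so none was tested only because it was high after treatment. Without DEN+CCl4 replicate 1, limma called 4 complement members lower, Mbl2, C6, C8b and Mbl1 (adjusted p = 0.0164, 0.0217, 0.0313 and 0.0351), where 4.63% of all genes tested were called (1.42% higher and 3.21% lower). Without DEN+CCl4 replicate 3 it called 0 members and 0% of all tested genes. For the members called without replicate 1, that library stood at 0.669 to 1.27 of the control mean after scaling. It was the treated library nearest the controls for them, so leaving it out raised their differences.

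The treated libraries were not alike. As deposited, DEN+CCl4 replicate 1 lay below every control for 5 of 35 members (11.9% of all tested genes did so), replicate 2 for 19 (22.7%) and replicate 3 for 27 (83.9%). Above every control lay replicate 1 for 6 members (25.8% of all tested genes), replicate 2 for 6 (45.1%) and replicate 3 for 1 (5.66%). F11 was the only member above every control in both replicates 2 and 3 (4.89% of all tested genes). Replicates 2 and 3 were both below every control for 18 members (22.2%). After scaling the counts below were 6 (19.9% of all genes), 23 (38.2%) and 15 (47.3%). For replicate 2 the members' share after scaling, 65.7%, was above that of all genes, and for replicates 1 and 3, at 17.1% and 42.9%, it was below. Replicate 3 after scaling also lay above every control for 13 members, 37.1% against 27.8% of all tested genes, while replicate 1 did so for 3 (16.5%) and replicate 2 for 1 (27.7%). After scaling, 13 members lay below every control in both replicates 2 and 3 (37.1%, against 26.3% of all genes), 8 of the 18 complement members and 4 of the 16 coagulation members among them.

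**Figure D1:**
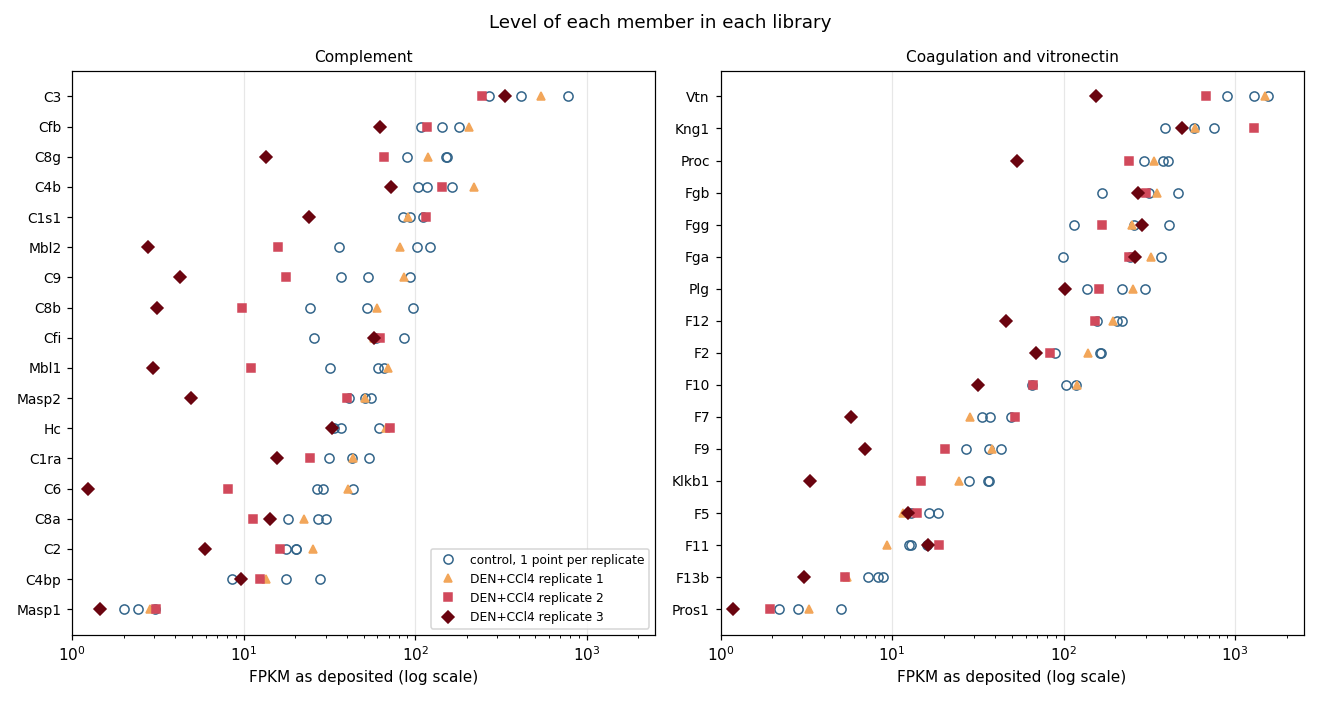
Level of each of the 35 members in each library, with FPKM as deposited on a log axis, complement on the left and coagulation with vitronectin on the right, and 1 symbol per library (open circles are the 3 controls). C6, C8b, C9, Mbl1 and Mbl2 lie far to the left in DEN+CCl4 replicates 2 and 3, while the 3 fibrinogen chains lie within the control range in all 3 treated libraries.

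Complement and coagulation members had similar medians. The median log2 fold change was -0.61 over the 18 complement members and -0.50 over the 16 coagulation members as deposited, and -0.31 and -0.23 after scaling. Within complement it was lowest for the terminal components, at -1.45 as deposited and -1.17 after scaling, and within coagulation highest for fibrinogen with factor XIII B, at 0.03 and 0.35. As deposited 28 of 35 members had a negative fold change (6341 of 8528 tested genes did), and 24 after scaling (5104 of 8528).

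The mannose-binding lectins, which start the lectin pathway by binding microbial sugars, were among the lowest members in 2 treated libraries. Mbl2 (chromosome 19, 30232942 to 30239687, GRCm38) read 122, 35.8 and 102 FPKM in controls 1, 2 and 3, then 81.1, 15.9 and 2.77 FPKM in DEN+CCl4 replicates 1, 2 and 3. Replicates 2 and 3 were below every control and replicate 1 was among them. Its log2 fold change was -2.16 (SE 0.94, limma adjusted p = 0.440) as deposited and -1.92 (SE 0.86, limma adjusted p = 0.456) after scaling, the largest in size of any member on both scales. On the scaled values Mbl2 was at 0.142 and 0.0860 of the control mean in replicates 2 and 3. Mbl1 (chromosome 14, 41151458 to 41159601) read 65.6, 32.0 and 60.6 FPKM across the controls, then 69.1, 10.99 and 2.95 FPKM across the treated livers (log2 fold change -1.78, limma adjusted p = 0.646). It had the same order of libraries as Mbl2, apart from replicate 1, which was above every control as deposited. As deposited, the log2 fold change without DEN+CCl4 replicate 1 was -3.28 for Mbl2 and -2.90 for Mbl1, and without replicate 3 it was -1.06 and -0.82.

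The proteases that act with these lectins and with C1q differed from them. Masp2, the lectin pathway protease that cleaves C4 and C2, read 51.2, 41.1 and 54.9 FPKM across the controls, then 50.7, 39.7 and 4.95 FPKM across the treated livers, with replicate 2 just below the controls and replicate 3 far below (log2 fold change -1.10, -0.12 without replicate 3). After scaling Masp2 was at 0.940, 0.629 and 0.273 of the control mean in replicates 1, 2 and 3, with replicates 2 and 3 below every control. Masp1, a protease that activates Masp2, was the lowest member in control liver, at 2.49 ± 0.513 FPKM (SD, n = 3) against 2.46 ± 0.876 FPKM in DEN+CCl4 liver, and its fold change went from -0.04 to 0.17 with scaling. The C1 proteases C1ra and C1s1 read 42.7 ± 11.3 against 27.9 ± 14.2 FPKM and 96.4 ± 13.7 against 76.9 ± 47.4 FPKM. After scaling C1ra was at 0.925, 0.441 and 0.991 of the control mean in replicates 1, 2 and 3, with replicate 2 below every control. As deposited C1s1 was at 90.9 and 116 FPKM in replicates 1 and 2, inside or above the control range of 84.5 to 111 FPKM. It was at 24.1 FPKM in replicate 3. After scaling C1s1 was at 0.859, 0.934 and 0.677 of the control mean in replicates 1, 2 and 3, with replicates 1 and 3 below every control. Of the 31-base words of C1ra and C1s1 transcripts, 56.9% and 33.5% also occur in C1rb and C1s2, so reads may be split between the copies. C1rb and C1s2 were at most 1.09 FPKM in any library.

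The convertase genes had a median log2 fold change of -0.31 as deposited and 0.00 after scaling. C3, the protein on which all complement pathways meet, read 773, 268 and 413 FPKM across the controls, then 541, 245 and 332 FPKM across the treated livers. The controls alone spanned nearly the whole range, and the log2 fold change was -0.32 as deposited and -0.01 after scaling. C4b, the precursor of the C4b fragment of the classical and lectin convertase, read 164, 117 and 104 FPKM across the controls, then 220, 142 and 72.4 FPKM across the treated livers. Cfb, the protease of the alternative convertase, was at 143 ± 36.1 and 128 ± 71.8 FPKM, and C2, its classical counterpart, at 19.3 ± 1.38 and 15.9 ± 9.76 FPKM (SD, n = 3). Replicate 1 was above every control for C4b, Cfb and C2 on both scales. After scaling replicate 3 was at 1.52, 1.17 and 0.834 of the control mean for C4b, Cfb and C2. There C4b was above every control and C2 below every control. The log2 fold change of C4b was 0.06 as deposited and 0.37 after scaling. C4b shares 48.3% of its words with C4a, which read 84.5 FPKM in replicate 1 and 1.16 to 21.8 FPKM in the other libraries, so both values are uncertain. C2 and Cfb overlap a read-through gene, Gm20547, with which they share 40.2% and 75.5% of their words, so their values are uncertain too.

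Of the 6 terminal components, all but Hc lay below every control in both DEN+CCl4 replicates 2 and 3 as deposited (22.2% of all tested genes did). After scaling all but Hc and C8a did (26.3% of all tested genes). C6 (chromosome 15, 4727175 to 4814967), the first protein to join C5b, read 43.6, 26.6 and 29.1 FPKM across the controls, then 40.6, 8.14 and 1.24 FPKM across the treated livers (log2 fold change -1.81, SE 0.83, limma adjusted p = 0.517). C8b (chromosome 4, 104766317 to 104804548), the beta chain of C8, read 96.8, 24.3 and 52.4 FPKM across the controls, then 60.2, 9.77 and 3.14 FPKM across the treated livers (-1.87, SE 0.89, limma adjusted p = 0.579). C9, which polymerises into the pore, read 92.8, 37.1 and 53.3 FPKM across the controls, then 85.8, 17.6 and 4.24 FPKM across the treated livers (-1.50, limma adjusted p = 0.843). In each of these genes replicates 2 and 3 were below every control and replicate 1 was inside the control range. After scaling, C6 was at 0.190 and 0.101 of the control mean in replicates 2 and 3, C8b at 0.130 and 0.145, and C9 at 0.223 and 0.186. C8g, the lipocalin-like chain of C8, followed the same order less steeply, at 0.387 and 0.276 (131 ± 36.0 against 65.9 ± 52.7 FPKM). As deposited, the log2 fold changes of C6, C8b, C9 and C8g were -2.88, -2.93, -2.55 and -2.06 without replicate 1 and -0.77, -0.99, -0.52 and -0.53 without replicate 3.

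Hc, the gene of complement C5, read 61.4, 37.1 and 33.4 FPKM across the controls, then 67.5, 71.6 and 32.7 FPKM across the treated livers, with a log2 fold change of 0.35 as deposited and 0.65 after scaling (limma adjusted p = 0.996 and 0.587). It was the only member whose fold change was positive in every processing alternative tried. C8a (chromosome 4, 104815679 to 104876398), the alpha chain of C8, read 27.1, 30.1 and 18.1 FPKM across the controls, then 22.5, 11.4 and 14.1 FPKM across the treated livers. As deposited, replicates 2 and 3 were both below every control. After scaling C8a was at 0.351 of the control mean in replicate 2, below every control, and at 1.52 in replicate 3, above every control, where C8b was at 0.130 and 0.145.

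Ratios of 2 members within a library do not depend on how that library is scaled. The ratio of Hc to C6, successive proteins of the terminal pathway, was 1.41, 1.39 and 1.15 in controls and 1.66, 8.79 and 26.4 in DEN+CCl4 replicates 1, 2 and 3, so every treated library was above every control. The ratio of C8a to C8b was 0.280, 1.24 and 0.345 in controls and 0.373, 1.16 and 4.50 in DEN+CCl4 liver, where control 2 reached the value of replicate 2. The pair Hc and C6 was picked after its values were seen, so no test is given, and an exact permutation test of 3 against 3 libraries cannot go below 0.1.

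C8a and C8b lie tail to tail on chromosome 4, 11131 bases apart. To show what stands before 2 neighbouring genes with different levels, the 150 bases before each start site are printed 5′ to 3′ from RefSeq (GRCm38.p6), C8a from the minus strand at chr4:104876399-104876548 and C8b from the plus strand at chr4:104766167-104766316. Capitals mark matches, on either strand, to 4 short motifs, GTTAAT of HNF1 and TTGCNNAA of C/EBP, both hepatocyte factors, CTGGGAA of the interleukin-6 response through STAT3, and CAAAGTNCA of HNF4.
C8a: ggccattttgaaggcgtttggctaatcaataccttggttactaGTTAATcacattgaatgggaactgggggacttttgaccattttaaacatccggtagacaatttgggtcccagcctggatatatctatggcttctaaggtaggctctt
C8b: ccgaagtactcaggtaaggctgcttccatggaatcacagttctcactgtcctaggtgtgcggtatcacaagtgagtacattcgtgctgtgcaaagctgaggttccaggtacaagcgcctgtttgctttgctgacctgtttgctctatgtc
C8a had 1 match, to the HNF1 letters, and C8b had 0 in the bases shown. A match is a description of letters and shows no binding, and its lack says nothing of the factor. C8b held the HNF1 letters further upstream, 206 to 201 bases before the start. RefSeq promoter sequences were at hand for 27 of the 35 members. In the 250 bases before the start 33.3% of these members had the HNF1 letters, 29.6% those of C/EBP, 18.5% those of STAT3 and 3.70% those of HNF4. Over 32851 promoters of all genes the shares were 6.43%, 9.56%, 9.10% and 1.19%. A member was counted if any of its promoters matched, while the shares over all genes count single promoters, so these measures differ.

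The 2 complement inhibitors lay within the control range in all treated libraries as deposited. Cfi, the protease that inactivates C3b and C4b, read 85.7, 25.5 and 58.7 FPKM across the controls, then 57.1, 61.9 and 57.6 FPKM across the treated livers, where all 3 treated values lay within the control range. After scaling replicate 3 was at 2.73 of the control mean, above every control. C4bp, the cofactor of Cfi on C4b, read 28.0, 8.49 and 17.7 FPKM across the controls, then 13.5, 12.5 and 9.70 FPKM across the treated livers, also within the control range. After scaling the treated values of C4bp stayed within it, with replicate 3 at 1.44 of the control mean.

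Fibrinogen is built from the products of Fga, Fgb and Fgg, which lie side by side on chromosome 3. These 3 genes varied together over the controls. Fga (83026076 to 83033627) read 368, 99.2 and 243 FPKM across the controls, then 324, 242 and 260 FPKM across the treated livers. Fgb (83040141 to 83049863) read 463, 167 and 314 FPKM across the controls, then 349, 301 and 273 FPKM across the treated livers. Fgg (83007724 to 83015049) read 411, 115 and 258 FPKM across the controls, then 249, 168 and 285 FPKM across the treated livers. In all 3 genes control 1 was the highest library and control 2 the lowest, and every treated value lay between them. The log2 fold changes were 0.40, 0.08 and -0.01 as deposited and 0.71, 0.39 and 0.30 after scaling, with standard errors of 0.68 to 1.05, so Fgg changes sign with the scaling (limma adjusted p = 0.734 to 1.00 over both scales). After scaling replicate 3 was at 2.96, 2.33 and 2.92 of the control mean for Fga, Fgb and Fgg, above every control, and replicate 2 at 0.787, 0.738 and 0.496, inside the control range.

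Over all 6 libraries, with controls 1 and 2 furthest apart, the chains kept their proportions more closely than their levels. Across the treated livers alone this did not hold for Fgb and Fgg. Their ratio was 1.40, 1.79 and 0.959 in replicates 1, 2 and 3, where Fgb read 349, 301 and 273 FPKM. Fga to Fgg was 0.894, 0.861 and 0.943 in controls and 1.30, 1.44 and 0.915 in DEN+CCl4 liver. The ratio of Fgb to Fgg within a library ran from 0.959 to 1.79 over all 6 libraries and that of Fga to Fgb from 0.594 to 0.955. The ratio of Fga to Fgb was 0.794, 0.594 and 0.774 in controls and 0.929, 0.802 and 0.955 in DEN+CCl4 liver, with every treated library above every control. Of all ratios taken, between neighbours and between partners in function, only this ratio, Hc to C6 and Kng1 to Klkb1 had groups apart. In the rest the groups overlapped. No ratio was tested, and the share of other gene pairs with groups apart was not computed. The 3 chains summed to 0.139% to 0.289% of all nuclear FPKM across the controls, then to 0.281%, 0.251% and 0.512% in DEN+CCl4 replicates 1, 2 and 3. The bases before their start sites are shown because the genes varied together over the controls (RefSeq, GRCm38.p6, 150 bases 5′ to 3′). Fga and Fgg are from the plus strand at chr3:83025926-83026075 and chr3:83007574-83007723, Fgb from the minus strand at chr3:83049864-83050013, with the same 4 motifs in capitals. The RefSeq start of Fga lies inside the GENCODE gene, so its bases are those before the GENCODE start, 77 bases from the RefSeq start.
Fga: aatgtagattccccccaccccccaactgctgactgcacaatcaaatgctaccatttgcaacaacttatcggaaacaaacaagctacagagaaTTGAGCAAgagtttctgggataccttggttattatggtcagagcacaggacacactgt
Fgb: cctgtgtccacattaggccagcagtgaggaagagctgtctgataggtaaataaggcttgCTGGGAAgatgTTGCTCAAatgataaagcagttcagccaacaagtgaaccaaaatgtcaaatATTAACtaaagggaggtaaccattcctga
Fgg: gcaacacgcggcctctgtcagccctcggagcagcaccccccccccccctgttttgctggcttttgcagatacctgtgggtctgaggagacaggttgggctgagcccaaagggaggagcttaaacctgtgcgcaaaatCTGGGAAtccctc
Fga held the letters of C/EBP in these bases and those of HNF1 nearer to its RefSeq start (43 to 38 bases before it), Fgb those of STAT3, C/EBP and HNF1, and Fgg those of STAT3. F13b, the carrier chain of the fibrin-crosslinking factor XIII, read 8.87, 8.24 and 7.21 FPKM across the controls, then 5.47, 5.29 and 3.05 FPKM across the treated livers. As deposited its groups did not overlap, which held for 2 of 35 members (5.71%), F13b and Klkb1, and for 5.35% of all tested genes in the lower direction (8.36% in either). No member's groups were apart in the higher direction (3.01% of all tested genes). After scaling only Klkb1 was apart (2.86% of members, 8.68% of all tested genes lower, 5.95% higher and 14.6% in either direction), since F13b in replicate 3 moved into the control range.

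The vitamin K-dependent zymogens of the clotting cascade, F2, F7, F9 and F10, have products that need carboxylation to bind membranes. As deposited all were below every control in replicate 3, as were 83.9% of all tested genes. After scaling replicate 2 was below every control for F2, F9 and F10 (38.2% of all tested genes). Replicate 3 was so for F7 and F9 (47.3%). F2, prothrombin, read 164, 89.5 and 163 FPKM across the controls, then 139, 83.5 and 68.8 FPKM across the treated livers (log2 fold change -0.52, -0.21 after scaling). F10, which forms thrombin together with factor V, was at 95.7 ± 27.6 and 72.8 ± 44.6 FPKM (SD, n = 3). F9, the haemophilia B factor on the X chromosome, read 43.1, 27.0 and 36.9 FPKM across the controls, then 38.1, 20.3 and 6.95 FPKM across the treated livers, with replicates 2 and 3 below every control on both scales. F7, the factor that starts clotting with tissue factor, lies next to F10 and read 33.4, 49.1 and 37.2 FPKM across the controls, then 28.5, 52.1 and 5.74 FPKM across the treated livers. As deposited, replicate 2 was thus above every control for F7 and below every control for F9. F5, the cofactor of activated factor X, stayed between 11.6 and 18.4 FPKM in all 6 libraries (log2 fold change -0.30 as deposited and 0.00 after scaling). After scaling F5 was below every control in replicates 1 and 2 and above every control in replicate 3, at 0.664, 0.677 and 2.10 of the control mean.

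In the contact system factor XII and plasma kallikrein activate each other on surfaces and factor XI carries the signal on. It held Klkb1, the coagulation gene with the lowest fold change on both scales. Klkb1 (chromosome 8, 45266689 to 45294859), plasma prekallikrein, read 36.7, 27.9 and 36.1 FPKM across the controls, then 24.7, 14.7 and 3.32 FPKM across the treated livers. All 3 treated libraries were below all 3 controls on both scales, and after scaling they stood at 0.669, 0.339 and 0.267 of the control mean. The log2 fold change was -1.51 (SE 0.84, limma adjusted p = 0.741) as deposited and -1.26 (SE 0.42, limma adjusted p = 0.431) after scaling. As deposited it was -2.06 without replicate 1 and -0.77 without replicate 3. F11 (chromosome 8, 45241174 to 45262031), which arose by duplication from the same ancestor as Klkb1 and lies 4658 bases from it, read 12.5, 16.0 and 12.8 FPKM across the controls, then 9.38, 18.8 and 16.2 FPKM across the treated livers (log2 fold change 0.05, 0.36 after scaling). The ratio of F11 to Klkb1 was 0.340, 0.574 and 0.355 in controls and 0.380, 1.28 and 4.87 in DEN+CCl4 replicates 1, 2 and 3. Replicates 2 and 3 were above every control and replicate 1 was among them. Klkb1 shares 43.0% of its words with an overlapping gene on the same strand, Gm45753.

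The 150 bases before the starts of this neighbouring pair are shown for the same reason as for C8a and C8b, both from the minus strand (RefSeq, GRCm38.p6, 5′ to 3′), F11 at chr8:45262032-45262181 and Klkb1 at chr8:45294860-45295009. As for Fga, the bases of Klkb1 are those before the GENCODE start, 24 bases from the RefSeq start.
F11: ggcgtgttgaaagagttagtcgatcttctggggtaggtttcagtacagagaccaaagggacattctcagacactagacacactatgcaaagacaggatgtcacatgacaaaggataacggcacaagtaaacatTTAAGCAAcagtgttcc
Klkb1: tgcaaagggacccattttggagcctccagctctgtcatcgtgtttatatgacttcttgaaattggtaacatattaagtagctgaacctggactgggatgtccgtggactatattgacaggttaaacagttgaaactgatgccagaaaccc
F11 had 1 match, to the C/EBP letters, and Klkb1 had 0 whole matches in the bases shown and 1 to C/EBP at their upstream edge, 177 to 170 bases before the RefSeq start.

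Kng1, the kininogen from which kallikrein releases bradykinin, read 754, 391 and 575 FPKM across the controls, then 579, 1289 and 491 FPKM across the treated livers. It was the only member above every control in both replicates 2 and 3 after scaling, at 1.74 and 2.31 of the control mean (13.7% of all tested genes were), and its log2 fold change was 0.37 as deposited and 0.68 after scaling (limma adjusted p = 0.996 and 0.698). Without replicate 2 the unscaled value was -0.05. The ratio of Kng1 to Klkb1, substrate to enzyme precursor, was 20.5, 14.0 and 15.9 in controls and 23.5, 87.9 and 148 in DEN+CCl4 liver, with every treated library above every control. This pair too was picked after its values were seen. Kng1 shares 26.5% of its words with Kng2, which read 50.5 to 70.1 FPKM across the controls, then 51.7, 103 and 59.3 FPKM across the treated livers. F12, factor XII, read 205, 155 and 218 FPKM across the controls, then 195, 152 and 46.0 FPKM across the treated livers. After scaling F12 was at 0.918, 0.612 and 0.644 of the control mean in replicates 1, 2 and 3, with replicates 2 and 3 below every control.

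**Figure D2:**
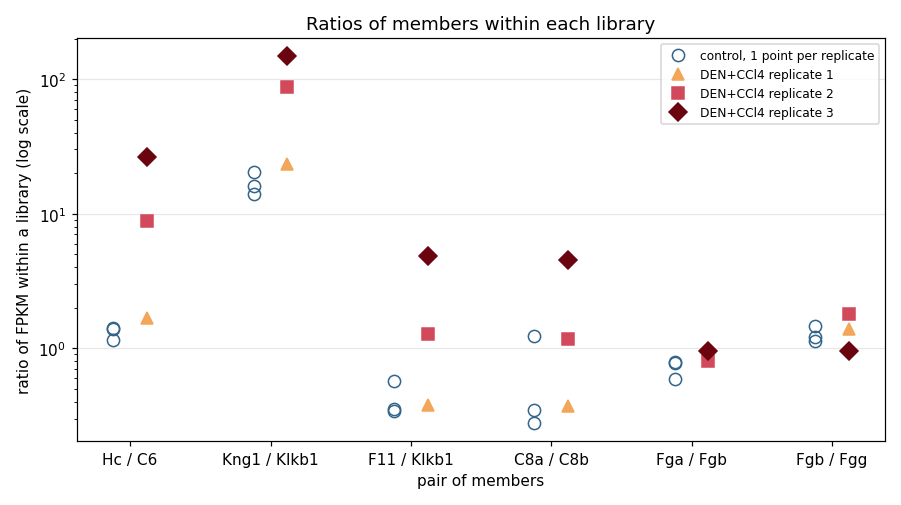
Ratio of FPKM of 2 members within each library, on a log axis, for 6 pairs, with controls as open circles and each treated library as its own symbol. The ratios of Hc to C6 and of Kng1 to Klkb1 are above every control in all 3 treated libraries, while the ratio of Fgb to Fgg stays between 0.959 and 1.79.

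Among the genes that limit clotting or dissolve clots, Proc, the precursor of the anticoagulant activated protein C, read 380, 294 and 407 FPKM across the controls, then 336, 240 and 53.1 FPKM across the treated livers (log2 fold change -1.13, limma adjusted p = 0.996). After scaling it was at 0.850, 0.517 and 0.399 of the control mean, with replicates 2 and 3 below every control. Pros1, protein S, the cofactor of activated protein C, read 5.05, 2.18 and 2.83 FPKM across the controls, then 3.26, 1.93 and 1.18 FPKM across the treated livers. After scaling Pros1 was at 0.878, 0.443 and 0.944 of the control mean in replicates 1, 2 and 3, with replicate 2 below every control. Plg, plasminogen, read 296, 137 and 220 FPKM across the controls, then 255, 160 and 101 FPKM across the treated livers (-0.37, -0.06 after scaling). Vtn was the most abundant member, with 1544, 893 and 1282 FPKM across the controls, then 1493, 678 and 154 FPKM across the treated livers (-1.16, -0.85 after scaling, limma adjusted p = 0.996 and 0.638). Replicate 1 was inside and replicates 2 and 3 were below the control range on both scales. As deposited, the fold change of Vtn was -1.90 without replicate 1 and -0.26 without replicate 3, and that of Proc -1.65 and -0.33.

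**Figure D3:**
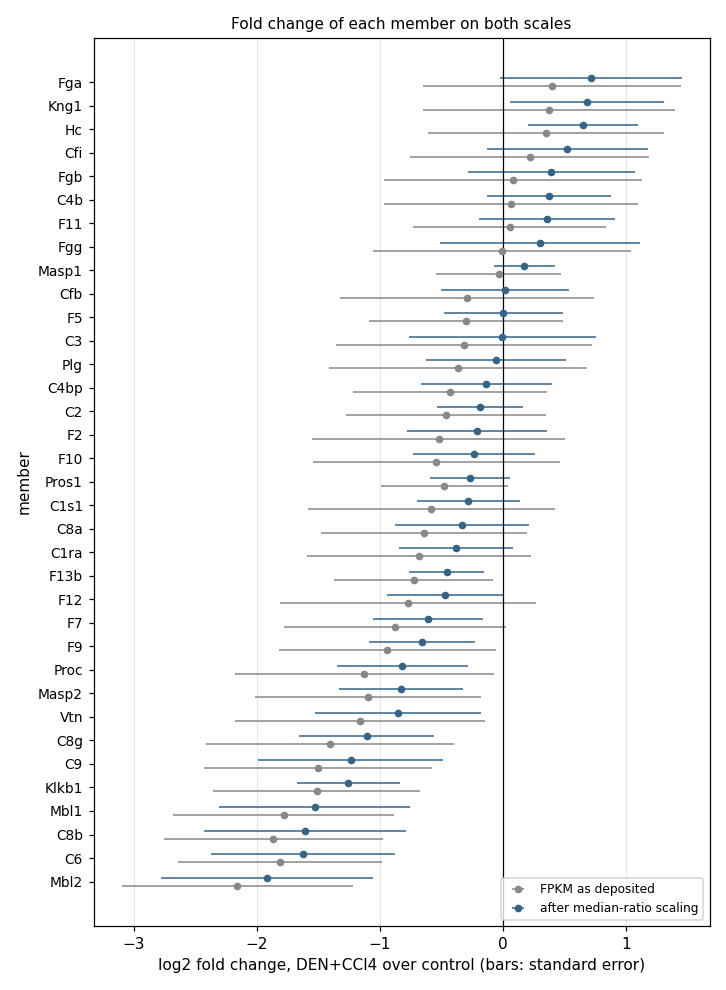
Log2 fold change of DEN+CCl4 over control liver for each member, on the log2(FPKM + 1) scale, as deposited in grey and after median-ratio scaling in blue, with bars for the limma standard error (n = 3 in each group). Mbl2, C6, C8b and Mbl1 are lowest on both scales, and no member passed the test on either.

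The controls also differed from each other. Control 1 was the highest control for 27 of 35 members and control 2 the lowest for 26, as deposited. After scaling control 2 was the lowest for 26 as well, and the median member stood at 0.40 in control 1 and -0.40 in control 2 on the log2 scale, counted from the mean of the controls. The mitochondrial share was 38.1% in control 1 and 62.1% in control 2, and its part in these differences was not tested. After scaling the median complement member stood at 0.09, -0.89 and -0.11 by the same measure in treated replicates 1, 2 and 3, and the median coagulation member at -0.08, -0.73 and 0.21. The terminal complement genes were at 0.16, -1.67 and -1.99, and fibrinogen with factor XIII B at 0.06, -0.56 and 1.54.

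**Figure D4:**
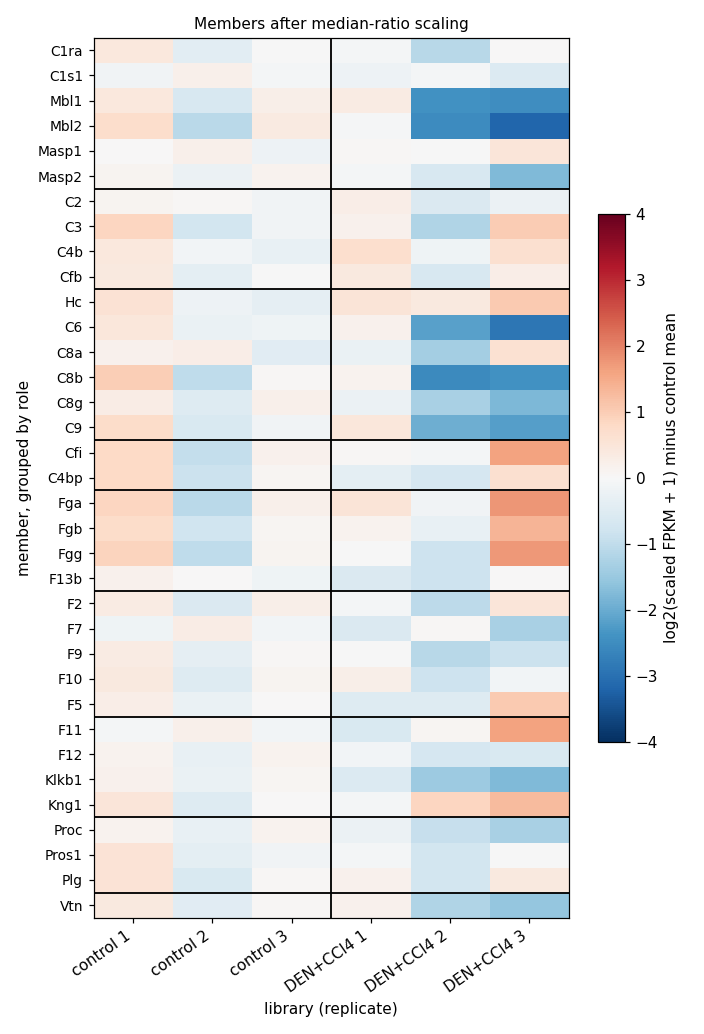
Members in rows, grouped by role, and libraries in columns, with colour for log2(scaled FPKM + 1) minus the control mean after median-ratio scaling (blue lower, red higher). In DEN+CCl4 replicate 3 Mbl1, Mbl2, C6, C8b and C9 are blue while Fga, Fgb, Fgg, Cfi and F11 are red, and replicate 1 is pale.

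The rest of the 2 cascades was followed in 4 further lists, of which 29 genes passed the filter. Limma called 0 of them higher and 0 lower, against 1.48% of all tested genes, and 2 of them, both lower, had an unadjusted p under 0.05, with 0 called after scaling. Their median log2 fold change was -0.36 as deposited and -0.14 after scaling. Of the other soluble complement genes, Clu, clusterin, an inhibitor of the terminal complex, was at 342, 81.8 and 212 FPKM across the controls, then 204, 159 and 94.6 FPKM across the treated livers, and Cfhr2, a factor H-related protein, at 69.1, 32.1 and 73.1 against 50.5, 33.0 and 21.9 FPKM. Of receptors and membrane regulators, Cd59a, which blocks the pore, was at 3.65, 16.0 and 4.26 against 8.15, 4.81 and 2.50 FPKM, and Vsig4, a C3b receptor of Kupffer cells, at 9.76, 2.46 and 2.80 against 3.45, 1.71 and 2.48 FPKM. Hrg, a plasma protein that binds heparin and plasminogen, was at 764, 381 and 667 against 609, 434 and 123 FPKM, and Proz, protein Z, at 115, 95.4 and 106 against 111, 96.2 and 25.9 FPKM. Of the genes for vitamin K recycling and factor V export, Vkorc1, the target of warfarin, was at 43.2, 59.2 and 113 against 109, 56.8 and 14.8 FPKM, and Mcfd2, an export receptor subunit, at 18.7, 11.1 and 14.5 against 13.7, 19.0 and 8.12 FPKM.

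The secreted hepatocyte proteins outside the cascades had 0 of 9 members called, 8 with a negative fold change, and a median log2 fold change of -0.56 as deposited and -0.25 after scaling, within the span of the complement and coagulation medians after scaling and as deposited. Apoa2 read 16761, 7398 and 745 FPKM in DEN+CCl4 liver against 15251 to 26314 FPKM in controls, and Apoa1 10250, 35125 and 4111 FPKM against 10628 to 12689 FPKM. After scaling replicate 3 was at 0.101 of the control mean for Apoa2 and 0.940 for Apoa1. Markers of other cells summed to 33.5 to 86.9 FPKM across the controls, then 21.4 to 49.4 FPKM across the treated livers for 7 macrophage genes. The sums were 7.58 to 11.6 and 13.6 to 33.6 FPKM for 7 stellate cell genes, and 1.64 to 4.90 and 5.31 to 22.2 FPKM for 4 neutrophil genes, of which Mpo and Camp were listed at 0 in controls 2 and 3. They were 10.2 to 18.8 and 7.09 to 22.2 FPKM for 6 endothelial genes, 1.01 to 1.83 and 1.25 to 6.67 FPKM for 5 bile duct genes, 2.57 to 4.43 and 2.50 to 5.74 FPKM for 5 platelet genes, and 222 to 609 and 141 to 2637 FPKM for 4 globin genes. These sums are as deposited. After scaling replicate 3 summed to 51.0 FPKM for macrophage genes (controls 28.8 to 79.3). For stellate cell genes it summed to 32.4 FPKM (controls 6.64 to 10.4). As deposited Col1a1, Col3a1 and Acta2 were above every control in all 3 treated libraries (3.01% of all tested genes were). Lrat, Timd4 and Marco were below every control in all 3 (5.35%), Lrat and Timd4 under the filter. The other stellate cell and macrophage genes overlapped. The part of these cells in the members' values was not tested.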

How the data were processed

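FPKM were made by the authors and deposited as a single table, per the file headers. HISAT, StringTie and GRCm38 appear in the submitters' processing notes. Their versions, the annotation and any strand setting were not given in the sources used here. Counts on antisense partners (for Masp2, Hc, Fgg, F5, Plg, C2 and C1s1) may therefore be mixed. RNA with a RIN above 7 was poly(A)-selected from 5 ug, per the labels' protocols. Depth is unknown. Genes averaging 1 FPKM or more (8528 of 25102) were tested on log2(FPKM + 1), which understates the change of low genes, with limma 3.58.1 in R 4.3.3 (trend, two-sided, no covariates, 3 against 3 libraries). P-values were adjusted by Benjamini-Hochberg over all of them at a threshold of 0.05. The procedure was run on simulated data with normal noise of equal spread in both groups. The simulated data held no library like DEN+CCl4 replicate 3, so that run cannot speak for such a library. Coordinates and transcript words (31 bases) came from GENCODE M21 (GRCm38), promoters from RefSeq (GRCm38.p6). Mitochondrial transcripts comprised 44 genes, 7 of them nuclear genes with at least 50% of their words in mitochondrial transcripts.

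The members and lists were chosen with earlier results of these data known. All 35 members were named whatever their values. Of each other pathway list the 2 genes with the highest mean and any called were named, and of the hepatocyte proteins the 3 highest. Fcna, C4a, Kng2, C1rb, C1s2, Gm20547, Gm45753, Mpo, Camp, S100a8 and the ratio pairs other than neighbours within 100000 bases were chosen after values were seen. So were Col1a1, Col3a1, Acta2, Lrat, Timd4 and Marco. Of the listed genes 3 were not found by name, and 1 result is not reported here. Python 3.11.15, pandas 2.3.3 and matplotlib 3.10.9 served for the rest. Alternatives were another pseudocount, filters, scalings, no trend, a replicate block and each library left out.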

Additional observations from a re-analysis of the deposited data

How the results depend on the processing

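Limma called 0 complement and 0 coagulation members under every alternative with all 6 libraries. Over fits that left out each library in turn, on both scales, the calls ranged from 0 to 4 for complement and from 0 to 1 for coagulation, and both upper values came without DEN+CCl4 replicate 1 (Mbl1, Mbl2 and C6 on both scales, C8b as deposited, C9 and Klkb1 after scaling). Of all tested genes, 126 were called as reported, 9 with a pseudocount of 0.1, 67 with a filter at 5 FPKM, and 0 with no filter, median-ratio scaling, rescaling to the nuclear total, or limma without trend. Leaving out libraries gave 0 to 680 (0 without DEN+CCl4 replicate 3). Why was not tested.

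The coagulation median was -0.037 with rescaling to the nuclear total, and ran from -0.77 to 0.13 with libraries left out. Signs turned with median-ratio scaling for Masp1 (0.17), Cfb (0.013), Fgg (0.30) and F5 (0.0009). With rescaling to the nuclear total they turned for Masp1 (0.38), C3 (0.18), Cfb (0.20), C4bp (0.046), Fgg (0.49), F5 (0.18) and Plg (0.13). With libraries left out, log2 fold changes ran from -1.01 to 0.10 for C1s1, -0.17 to 0.28 for Masp1, -0.89 to 0.077 for C2, -0.68 to 0.60 for C3, -0.31 to 0.66 for C4b, -0.71 to 0.34 for Cfb and -0.90 to 0.19 for C8a. They ran from -0.27 to 0.90 for Cfi, -0.87 to 0.24 for C4bp, -0.13 to 1.14 for Fga, -0.32 to 0.74 for Fgb, -0.51 to 0.86 for Fgg, -0.81 to 0.20 for F2 and -0.998 to 0.065 for F10. They ran from -0.53 to 0.26 for F5, -0.27 to 0.84 for F11, -0.053 to 1.05 for Kng1 and -0.70 to 0.28 for Plg. The other 17 members, 16 lower and Hc higher, kept their sign in each of 20 alternatives run, or 19 for Pros1, which the filter at 5 FPKM removed. Their sizes moved: -3.28 to -1.06 for Mbl2, -2.90 to -0.82 for Mbl1, -2.88 to -0.77 for C6, -2.93 to -0.99 for C8b, -2.55 to -0.52 for C9, -2.06 to -0.53 for C8g, -1.67 to -0.12 for Masp2, -2.06 to -0.77 for Klkb1, -1.90 to -0.26 for Vtn and -1.65 to -0.33 for Proc, in each of these lowest without DEN+CCl4 replicate 1 and nearest 0 without replicate 3. The ranges were -1.52 to -0.029 for F7, -1.47 to -0.32 for F9, -1.18 to -0.15 for F12, -0.85 to -0.28 for F13b, -1.05 to -0.018 for C1ra, -0.73 to -0.0041 for Pros1 and 0.15 to 0.92 for Hc.

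Whether the replicate numbers pair the libraries is not known. Deviations of same-numbered libraries from their group means correlated at 0.07, 0.42 and -0.15, and 3 libraries in each group cannot settle it. With a replicate block 94 genes and 0 members were called, and with the block and median-ratio scaling 0 genes, with Masp1 at 0.17, Cfb at 0.013, Fgg at 0.30 and F5 at 0.0009. Same-numbered libraries were not in every case the best correlated. Without counts the counting error of each value is unknown.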

Other observations

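Outside the 35 members, a soluble complement gene was below every control in DEN+CCl4 replicates 2 and 3 and within the control range in replicate 1, as deposited. Fcna, the ficolin of Kupffer cells that starts the lectin pathway beside the mannose-binding lectins, read 21.6, 7.70 and 12.9 FPKM across the controls, then 9.06, 2.31 and 0.65 FPKM across the treated livers (log2 fold change -1.88, limma adjusted p = 0.180, and 0.431 after median-ratio scaling). The neutrophil gene S100a8 passed limma's test as deposited (0.34 to 0.76 FPKM across the controls, then 1.38 to 8.96 FPKM across the treated livers, log2 fold change 1.63, limma adjusted p = 0.0336) but not after scaling (0.443). These genes were chosen after their values were seen.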
